A study of Mus musculus with 12 samples.

Results

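The genes described here are 10 genes that mark the sinusoidal endothelium of the liver, of 19505 gene symbols measured on the arrays. They were Stab1, Stab2, Plvap, Dnase1l3, Gpr182, Lyve1, Clec4g, Kdr, Pecam1 and Fcgr2b, taken by symbol, and each had exactly 1 probe set. A gene with several probe sets was to be represented by the one chosen by its mean signal over all 12 arrays, but this was needed for none of the 10. The names on the list were chosen with earlier results of these arrays known, so the list as a whole carries no test.

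Livers came from 12 adult male C57BL/6J mice aged 4 to 5 months, with 1 array per mouse. The 6 mice of arrays 7 to 12 were born to UCP1-KO dams, which lack uncoupling protein 1, the heat-producing protein of brown fat mitochondria. The 6 mice of arrays 1 to 6 were born to WT dams. Sires were heterozygous in both matings, every offspring is labelled HET (heterozygous for Ucp1), and all ate standard chow at 23 °C. The null allele therefore reached the first group through the mother and the second through the father, and this cannot be told apart from the genotype of the dam. The labels name no litter, so littermates cannot be recognised. The p-values apply only to these 12 livers and treat the 12 mice as independent. They can be too small if mice share a dam.

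Sinusoidal endothelial cells line the capillaries of the liver. Unlike most endothelium they are perforated by open pores and rest on no continuous basement membrane, and they are among the most active scavenger cells of the body, removing hyaluronan, modified proteins and immune complexes from blood. They also receive growth factors from hepatocytes, above all vascular endothelial growth factor A (Vegfa), and send back Wnt and BMP ligands that shape hepatocyte gene expression. In whole liver RNA, fewer endothelial cells and less RNA per endothelial cell cannot be told apart.

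Arrays were first compared over all probe sets and over the negative controls. The first principal component over 22206 probe sets held 19.8% of the variance. On it, arrays 8, 10 and 11 of the UCP1-KO dams lay at 26.4 to 37.5, and the other 9 arrays at -24.1 to 1.7. Its mean was 16.33 ± 18.34 in offspring of UCP1-KO dams and -16.33 ± 9.19 in offspring of WT dams (SD, n = 6 each). The groups differed on this component (exact permutation p = 0.00649). Leaving out arrays 8, 10 and 11 therefore removes the UCP1-KO-dam end of a component that differed by dam. Arrays 3 to 6 of the WT dams had the brightest negative controls, with medians of 6.41 to 6.62 (log2 signal), against 5.96 to 6.36 on the other 8 arrays. No clear gap set them apart, as array 10 of the UCP1-KO dams, at 6.36, was close to array 6, at 6.41. These medians were 6.21 ± 0.14 in offspring of UCP1-KO dams and 6.39 ± 0.21 in offspring of WT dams (SD, n = 6 each, exact permutation p = 0.119). For the members and other genes whose differences moved most, values without these arrays stand beside the difference. The mean of every one of the 10 genes lay above the level of the negative controls, 6.27.

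Across the comparison of dams, none of the 10 genes passed the test at an adjusted p under 0.05 (limma, adjusted over all probe sets), where 0.0360% of all probe sets passed, 0.0315% with the lower and 0.00450% with the higher mean in offspring of UCP1-KO dams. At an unadjusted p under 0.05 there were 5 of the 10, against 13.1% of all probe sets. With the dimmer 50% of probe sets left out there were again 5, against 17.2% of those kept. That count was 0 without arrays 8, 10 and 11 and 3 without arrays 3 to 6, against 8.48% and 7.03% of all probe sets. Of the 5, Stab2, Plvap, Dnase1l3 and Gpr182 had lower means in offspring of UCP1-KO dams, a direction and threshold met by 6.00% of all probe sets. Lyve1 had the higher mean, as did 7.08% of all probe sets under the same threshold. The median log2 difference of the 10 genes was -0.12, beside 0.03 over all probe sets, and 6 of the 10 lay below 0, beside 43.2% of all probe sets. Over the probe sets brighter than the negative controls, as all 10 members are, the median was -0.00327 and 50.6% lay below 0. The median of the 10 genes turned to 0.12 without arrays 8, 10 and 11, and with each array's negative control median as a covariate it was -0.28. The groups overlapped at all 10 genes, while 1.05% of all probe sets had groups that did not overlap, 0.423% with offspring of UCP1-KO dams below.

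**Figure D1:**
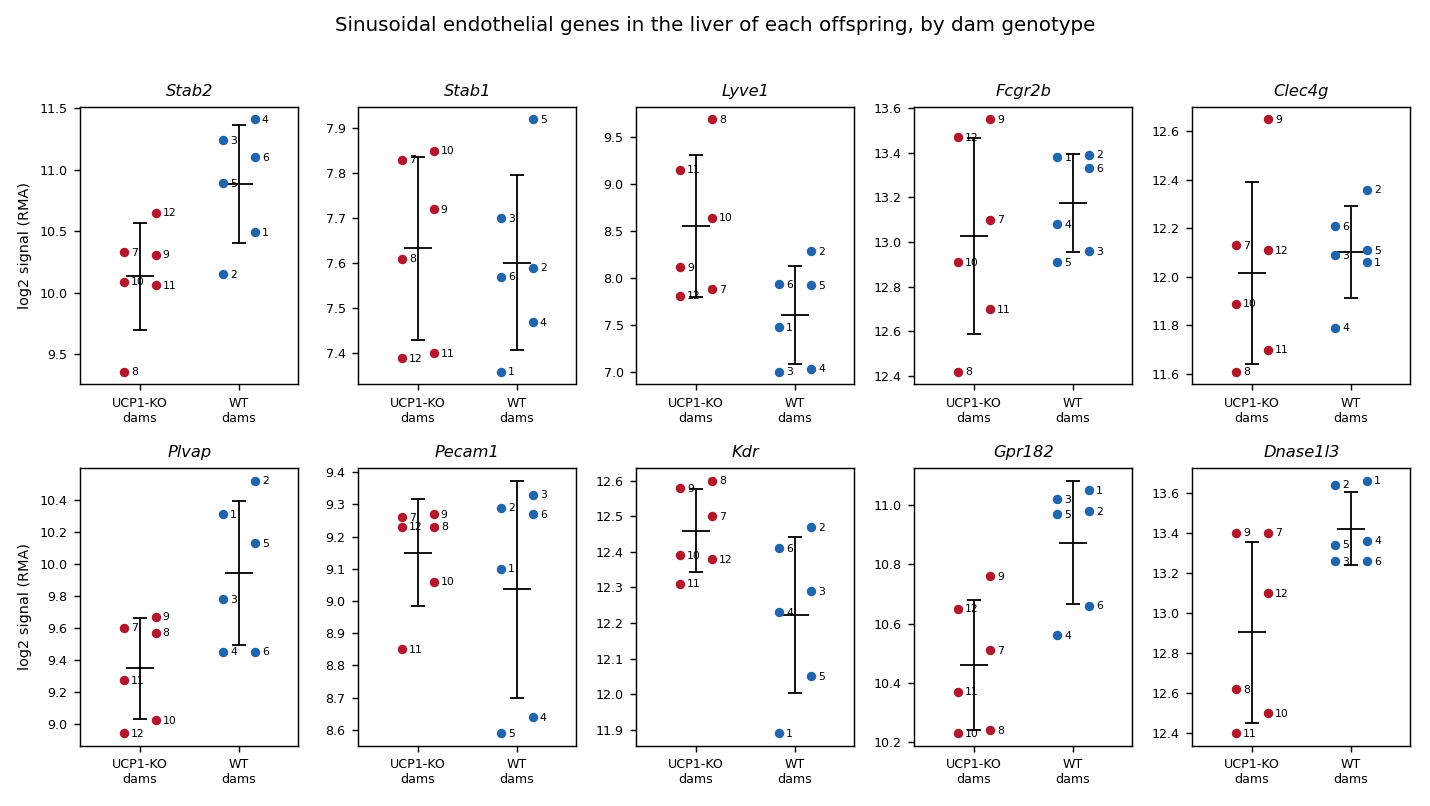
Log2 signal (y axis) of each of the 10 genes in the liver of every offspring, by dam genotype (x axis); points carry their array number, and bars give the mean ± SD of 6 mice. Stab2, Plvap and Gpr182 were below the median of the WT-dam group in all 6 offspring of UCP1-KO dams, and Lyve1 was above it in all 6.

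Stab2 encodes stabilin-2, the main endocytic receptor for hyaluronan of these cells. In offspring of UCP1-KO dams its signal ran from 9.36 on array 8 through a median of 10.20 to 10.65 on array 12, and in offspring of WT dams from 10.15 on array 2 through 10.99 to 11.41 on array 4. All 6 offspring of UCP1-KO dams lay below the median of the other group, and 3 lay below its lowest mouse. The log2 difference was -0.74 (95% interval -1.22 to -0.27, limma adjusted p = 0.175), a ratio of 0.597. The high values of the WT-dam group sat on arrays 3 to 6, at 10.89 to 11.41, the same arrays whose negative controls were brightest, while arrays 1 and 2 read 10.49 and 10.15. Without arrays 3 to 6 the difference was -0.19, and with each array's negative control median as a covariate it was -0.50. Without arrays 8, 10 and 11 it was -0.45. The part of the negative control signal in this difference was not tested further.

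Stab1 encodes stabilin-1, the related scavenger receptor, which macrophages also carry. Its signal was 7.39, 7.66 and 7.85 (lowest, median and highest) in offspring of UCP1-KO dams and 7.36, 7.58 and 7.92 in offspring of WT dams. The groups covered nearly the same range, with a log2 difference of 0.03 (interval -0.25 to 0.32, adjusted p = 0.953). The sign of this difference was negative without array 1, 7 or 10, and without arrays 3 to 6 it was 0.16.

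Lyve1 encodes a second hyaluronan receptor, known best from lymphatic endothelium and found on sinusoidal cells as well. It was the member with the largest difference of the 10, at 0.94 (interval 0.31 to 1.57, adjusted p = 0.191), a ratio of 1.92. Offspring of UCP1-KO dams had 7.81, 8.37 and 9.69 (lowest, median and highest) and offspring of WT dams 7.00, 7.70 and 8.28. The signals on arrays 8, 11 and 10, at 9.69, 9.15 and 8.64, were above every mouse of the WT dams. Arrays 7, 9 and 12, at 7.88, 8.11 and 7.81, lay inside the WT-dam range. Without arrays 8, 10 and 11 the difference was 0.33, and without WT-dam arrays 3 to 6 it was 0.67.

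Promoter sequences were at hand for 5 of the 10 genes in a RefSeq table of the mouse build GRCm38.p6. They were searched, over the 250 bases before the start of the gene and on both strands, for core letters of factors active in endothelium. These were AGGAAG for ETS factors, then for GATA factors AGATAA, and for SOX factors ACAAAG. The 2 stabilin promoters are shown because these related receptors differed in their values. Stab2 lies at chr10:87007943-87008192 and Stab1 at chr14:31168642-31168891, both on the minus strand, and capitals mark a match to the ETS letters on either strand.
Stab2: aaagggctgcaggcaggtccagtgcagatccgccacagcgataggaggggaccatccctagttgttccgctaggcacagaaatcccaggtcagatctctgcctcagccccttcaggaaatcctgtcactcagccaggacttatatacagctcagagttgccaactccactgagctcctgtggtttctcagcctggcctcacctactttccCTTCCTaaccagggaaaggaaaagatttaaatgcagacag
Stab1: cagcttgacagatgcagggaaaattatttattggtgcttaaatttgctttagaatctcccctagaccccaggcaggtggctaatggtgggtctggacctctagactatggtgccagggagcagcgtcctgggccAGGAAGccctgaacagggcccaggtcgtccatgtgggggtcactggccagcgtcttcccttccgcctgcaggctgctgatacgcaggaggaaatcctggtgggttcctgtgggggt
Each window held 1 such match and neither of the other motifs. Of all 32851 windows of this length, 29.5% held the ETS letters, 10.0% the GATA letters and 16.5% the SOX letters.

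Fcgr2b, the inhibitory receptor for IgG that takes up immune complexes in sinusoidal cells and is also carried by B cells and macrophages, had 12.42, 13.00 and 13.55 (lowest, median and highest) in offspring of UCP1-KO dams. Offspring of WT dams had 12.91, 13.21 and 13.39, so the first group was the more spread out and reached beyond the second at both ends. This gave a log2 difference of -0.15 (interval -0.54 to 0.23, adjusted p = 0.768). Clec4g, which encodes the lectin LSECtin, had 11.61, 12.00 and 12.65 in offspring of UCP1-KO dams and 11.79, 12.10 and 12.36 in offspring of WT dams. Its difference was -0.09 (interval -0.44 to 0.26, adjusted p = 0.867). Array 8 was the lowest of all 12 and array 9 the highest of all 12 for both genes. Without arrays 8, 10 and 11 the differences turned to 0.19 for Fcgr2b and 0.19 for Clec4g. Without WT-dam arrays 3 to 6 they were -0.36 for Fcgr2b and -0.19 for Clec4g.

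Plvap encodes the protein of the diaphragms that span endothelial pores and caveolae. In offspring of UCP1-KO dams it had 8.94, 9.42 and 9.67, and in offspring of WT dams 9.45, 9.96 and 10.52 (lowest, median and highest). All 6 offspring of UCP1-KO dams lay below the median of the other group. The log2 difference was -0.60 (interval -1.01 to -0.18, adjusted p = 0.211), a ratio of 0.662. Arrays 1 and 2 of the WT dams were highest, at 10.31 and 10.52, and arrays 4 and 6 lowest, at 9.45 each. Unlike that of Stab2, the difference of Plvap was larger without arrays 3 to 6, at -1.07, and with each array's negative control median as a covariate, at -0.88. Without arrays 8, 10 and 11 it was -0.54.

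Pecam1, the junction molecule CD31, is shared by all endothelium and by platelets and many leukocytes. It had 8.85, 9.23 and 9.27 (lowest, median and highest) in offspring of UCP1-KO dams and 8.59, 9.19 and 9.33 in offspring of WT dams. The medians were close, and the mean of the second group was pulled down by arrays 4 and 5, at 8.64 and 8.59. The means differed by 0.12 on the log2 scale (interval -0.21 to 0.44, adjusted p = 0.797), which turned to -0.045 without WT-dam arrays 3 to 6 and was 0.22 without arrays 8, 10 and 11.

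Kdr, the main receptor for Vegfa on endothelial cells, had 12.31, 12.44 and 12.60 in offspring of UCP1-KO dams and 11.89, 12.26 and 12.47 in offspring of WT dams (lowest, median and highest). All 6 offspring of UCP1-KO dams lay above the median of the other group and 3 above its highest mouse. The log2 difference was small, 0.24 (interval -0.03 to 0.51, adjusted p = 0.450), a ratio of 1.18. Over the 20 alternatives it stayed between 0.17 and 0.29. Its residual SD between mice, 0.174, was lower than that of all but 11.0% of the 10971 probe sets brighter than the negative controls.

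Gpr182 encodes an endothelial receptor of the G protein-coupled family that binds chemokines. Offspring of UCP1-KO dams had 10.23, 10.44 and 10.76, and offspring of WT dams 10.56, 10.98 and 11.05 (lowest, median and highest). All 6 of the first group lay below the median of the second and 4 below its lowest mouse. The means differed by -0.41 on the log2 scale (interval -0.70 to -0.12, adjusted p = 0.214), a ratio of 0.752. It was -0.55 without WT-dam arrays 3 to 6 and -0.23 without arrays 8, 10 and 11.

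Dnase1l3 encodes a secreted nuclease that degrades DNA in chromatin from dying cells, made by macrophages and dendritic cells as well. Its signal was 12.40, 12.86 and 13.40 (lowest, median and highest) in offspring of UCP1-KO dams and 13.26, 13.35 and 13.66 in offspring of WT dams. The WT-dam group was tight, and the other was divided between arrays 8, 10 and 11, at 12.62, 12.50 and 12.40, and arrays 7, 9 and 12, at 13.40, 13.40 and 13.10. The log2 difference was -0.52 (interval -0.90 to -0.13, adjusted p = 0.235), a ratio of 0.699. Without arrays 8, 10 and 11 it was -0.12. It was -0.75 without WT-dam arrays 3 to 6, and -0.68 with each array's negative control median as a covariate.

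**Figure D2:**
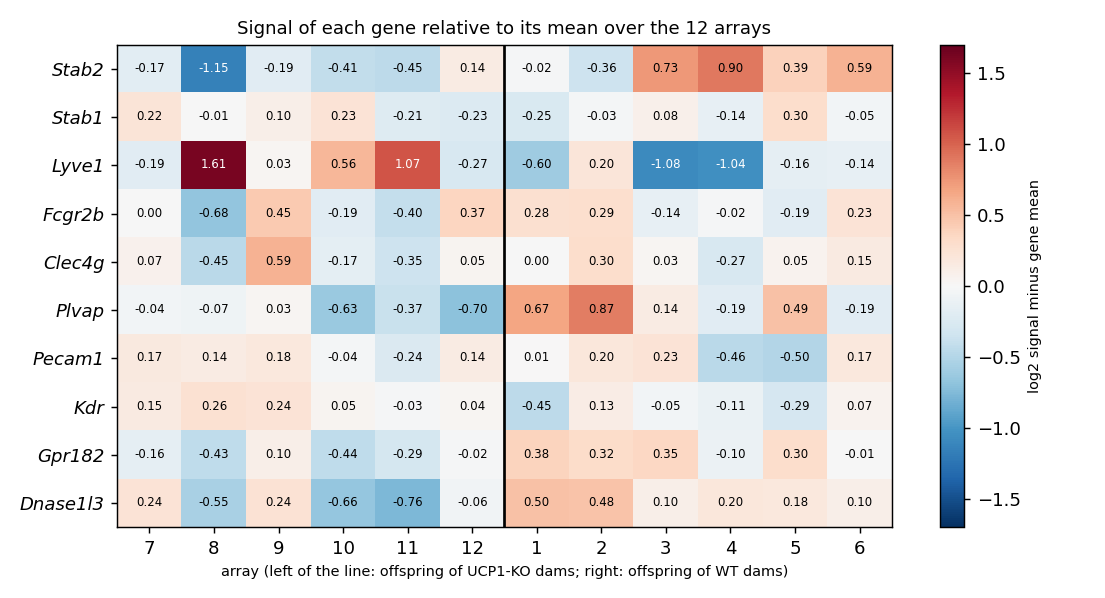
Log2 signal of each gene minus its own mean over the 12 arrays (colour and printed value), with genes in rows and arrays in columns, offspring of UCP1-KO dams to the left of the line and offspring of WT dams to its right. Lyve1 and Stab2 show the widest ranges. On arrays 8, 10 and 11 Lyve1 was above its mean while Stab2, Dnase1l3, Gpr182, Clec4g and Fcgr2b were below theirs.

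The 10 genes did not move as one block from mouse to mouse. Averaged over the 10 genes after centring each, arrays 8, 10 and 11 read -0.13, -0.17 and -0.20, and arrays 7, 9 and 12 read 0.03, 0.18 and -0.05. Arrays of the WT dams ran from -0.12 on array 4 to 0.24 on array 2. Array 11 was below the mean for 9 of the 10 genes, all but Lyve1, and array 9 was below it for 1, Stab2. Spread between mice within groups was widest for Lyve1, with a residual SD of 0.650, and next for Stab2, with 0.458. The median over the 10 genes was 0.321, beside 0.273 over all probe sets brighter than the negative controls.

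Pairs of members were compared across the 12 arrays after the mean of each dam group was removed. Of the 45 pairs, 32 had a Pearson's r above 0 and 8 had one above 0.5, with a median of 0.157 and a range of -0.812 to 0.815. Pairs of other genes were not counted, so it is not known whether these numbers are particular to the members. At a permutation p adjusted over the 45 pairs, 1 pair was under 0.05, Stab2 with Lyve1 (r = -0.812, permutation p = 0.0011, adjusted p = 0.0495, 100000 resamples within groups). The resamples were drawn at random, so another draw could put this adjusted p on either side of 0.05. The list was chosen with earlier results of these arrays known, so the p-values of its pairs only describe them. Spearman's rho, here and below from ranks taken within each dam group, was -0.857 for this pair (permutation p = 0.00211). It did not pass after adjustment (adjusted p = 0.0949). Ranked over all 12 arrays after removal of the group means, rho was -0.776. Within the 6 offspring of UCP1-KO dams r was -0.928, and within the 6 offspring of WT dams it was -0.708. Without the 2 arrays farthest from the median of Stab2 once group means were removed, r was -0.612. The 2 genes share the arrays and the RMA scaling, and the extremes of both lay on arrays 8, 3 and 4.

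**Figure D3:**
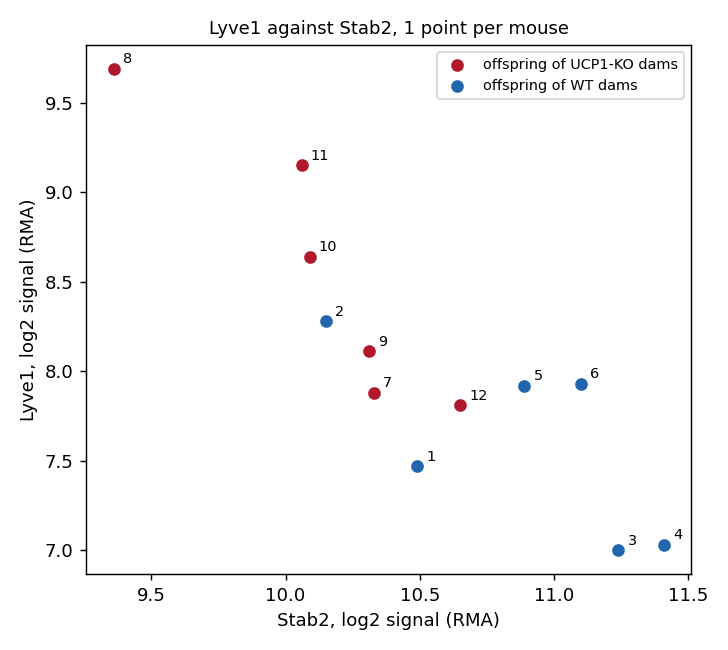
Lyve1 (y axis) against Stab2 (x axis), both as log2 signal, with 1 point per mouse numbered by array and coloured by the genotype of the dam. Array 8 had the highest Lyve1 and the lowest Stab2, and arrays 3 and 4 had the lowest Lyve1 and the highest Stab2.

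The pair with the highest correlation was Clec4g with Fcgr2b (r = 0.815, permutation p = 0.00527, adjusted p = 0.119, rho = 0.629 with permutation p = 0.0488). It did not pass after adjustment. Without the 2 arrays farthest from the median of Clec4g once group means were removed, r was 0.643. The r was 0.908 within offspring of UCP1-KO dams and 0.448 within offspring of WT dams. Their promoters are shown because these 2 genes varied most alike, Clec4g at chr8:3720652-3720901 and Fcgr2b at chr1:170976072-170976321, both on the minus strand of GRCm38.p6 in the RefSeq table, with capitals for the ETS letters as above.
Clec4g: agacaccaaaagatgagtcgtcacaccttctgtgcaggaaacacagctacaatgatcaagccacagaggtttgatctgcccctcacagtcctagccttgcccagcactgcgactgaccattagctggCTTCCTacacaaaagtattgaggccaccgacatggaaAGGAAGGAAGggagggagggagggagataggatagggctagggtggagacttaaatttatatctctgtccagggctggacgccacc
Fcgr2b: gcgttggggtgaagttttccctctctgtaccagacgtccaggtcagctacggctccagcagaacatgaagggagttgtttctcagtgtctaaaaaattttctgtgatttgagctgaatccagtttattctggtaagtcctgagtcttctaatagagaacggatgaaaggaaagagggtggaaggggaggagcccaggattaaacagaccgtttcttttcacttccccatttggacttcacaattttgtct
The Clec4g window held 3 matches, 2 of them overlapping, and the windows of Fcgr2b and Kdr held 0 of the 3 motifs.

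Stab2 and Plvap, both with lower means in offspring of UCP1-KO dams, varied against each other between mice (r = -0.696, permutation p = 0.0205, adjusted p = 0.193, rho = -0.543 with permutation p = 0.0971). The r was -0.368 within offspring of UCP1-KO dams and -0.917 within offspring of WT dams. It was -0.599 without the 2 arrays farthest from the median of Stab2 once group means were removed. The relation did not pass after adjustment.

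Endothelial genes outside the list were counted in the same fit. Of 13 measured other genes of sinusoidal endothelium, none passed (limma adjusted p of 0.539 to 0.984) and none had an unadjusted p under 0.05. Their median log2 difference was 0.01. The 2 with the smallest p were Cd300lg, an endothelial receptor, with -0.24 (9.20 ± 0.32 in offspring of UCP1-KO dams and 9.44 ± 0.23 in offspring of WT dams, SD, n = 6 each), and Gata4, a transcription factor that specifies sinusoidal endothelium, with -0.21. These differences were -0.003 for Cd300lg and -0.038 for Gata4 without arrays 8, 10 and 11. Of 19 measured genes common to endothelium of many organs, none passed and none had an unadjusted p under 0.05, with a median of -0.02. The smallest p were those of Esam, a junction protein, with -0.28, and Robo4, a guidance receptor, with -0.24. Without WT-dam arrays 3 to 6 they were -0.44 for Esam and -0.39 for Robo4.

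Large vessels of the liver were represented by 11 genes, of which none passed and 1 had an unadjusted p under 0.05. It was Selp, the P-selectin gene of activated endothelium and platelets, with -0.43 (adjusted p = 0.293), whose mean lay below the negative controls. The arterial ligand gene Efnb2 had 0.30, and -0.03 without arrays 8, 10 and 11. Of 7 genes of a continuous capillary wall, none passed and none had an unadjusted p under 0.05, and 6 lay above 0. Cd34 had 0.24 and the basement membrane collagen gene Col4a2 had 0.15, and without arrays 8, 10 and 11 they had 0.034 and 0.047. Cd34 turned to -0.073 without WT-dam arrays 3 to 6. Taking the sinusoidal, general, large-vessel and lymphatic lists together, 1 of 47 measured genes had an unadjusted p under 0.05, 2.13%, beside 13.1% of all probe sets. In the same order of lists, 12 of 13, 16 of 19, 5 of 11 and 2 of 4 genes lay above the negative controls.

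Among ligands and receptor partners, Vegfa had the smallest p. It had 12.55, 12.95 and 13.44 (lowest, median and highest) in offspring of UCP1-KO dams and 13.12, 13.88 and 14.03 in offspring of WT dams. Its log2 difference was -0.78 (interval -1.17 to -0.39, limma adjusted p = 0.106), a ratio of 0.583, and it passed without WT-dam array 2 (adjusted p = 0.0350, difference -0.90). As with Stab2, WT-dam arrays 3 to 6, at 13.81 to 14.03, were its highest 4, and without them the difference was -0.36. With each array's negative control median as a covariate it was -0.48, and without arrays 8, 10 and 11 it was -0.81. Nrp2, a co-receptor of the VEGF family, had 0.36 (adjusted p = 0.328), and 0.22 with the covariate. Of the 8 genes measured in the VEGF list, none passed and 2 had an unadjusted p under 0.05, Vegfa with the lower and Nrp2 with the higher mean in offspring of UCP1-KO dams.

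**Figure D4:**
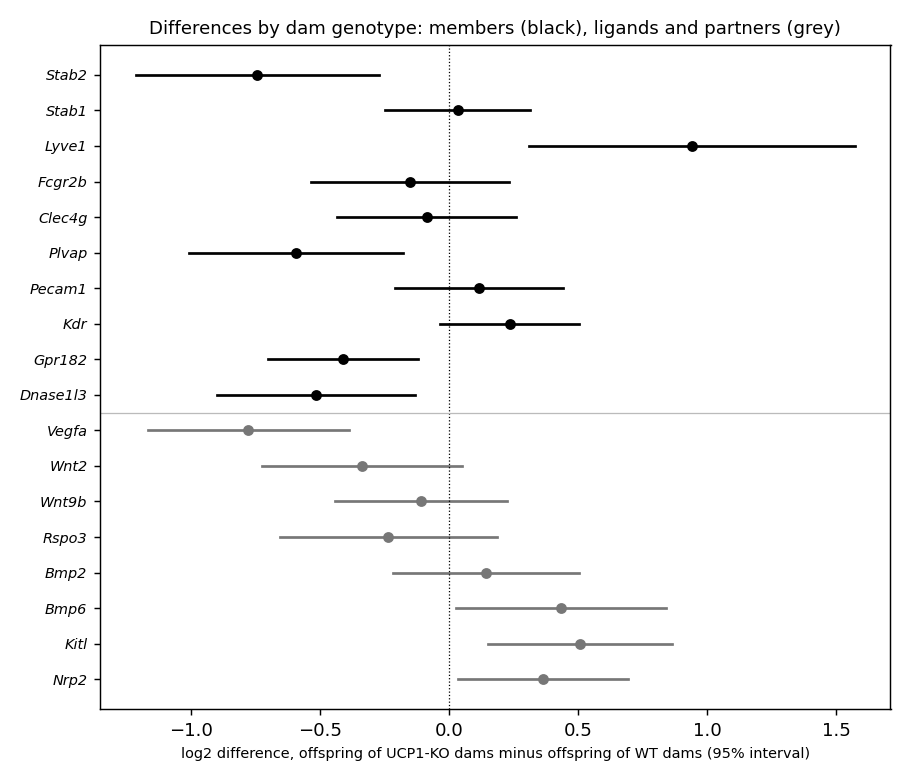
Log2 difference (x axis, the UCP1-KO-dam mean minus the WT-dam mean) with its 95% interval from limma for the 10 genes of the list (black) and for ligands and receptor partners (grey). Intervals of Stab2, Plvap, Gpr182, Dnase1l3 and Vegfa lie below 0 and those of Lyve1, Bmp6, Kitl and Nrp2 above it, and none of these passed after adjustment over all probe sets.

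Signals that liver endothelium sends to other cells were measured by 11 genes, of which none passed and 2 had an unadjusted p under 0.05. Kitl, the ligand of the receptor Kit, had 7.17, 7.74 and 7.91 in offspring of UCP1-KO dams and 6.61, 7.28 and 7.51 in offspring of WT dams (lowest, median and highest), with a difference of 0.51 (adjusted p = 0.212), and of 0.32 without WT-dam arrays 3 to 6. Bmp6, the ligand through which sinusoidal cells raise hepcidin in hepatocytes, had 7.51, 8.28 and 8.77 in offspring of UCP1-KO dams and 7.46, 7.62 and 8.08 in offspring of WT dams. Its difference was 0.43 (adjusted p = 0.348), and it was 0.09 without arrays 8, 10 and 11 and 0.19 without WT-dam arrays 3 to 6. The related ligand gene Bmp2 had 0.14, which turned to -0.27 without WT-dam arrays 3 to 6 and to -0.065 with the covariate. Wnt2, a Wnt ligand of central sinusoids, had a difference of -0.34 (adjusted p = 0.449), which was -0.016 without arrays 8, 10 and 11 and -0.51 with the covariate. Rspo3, which amplifies Wnt signals from the central vein, had -0.24, and 0.16 without arrays 8, 10 and 11. Wnt9b had -0.11 with means below the negative controls.

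**Figure D5:**
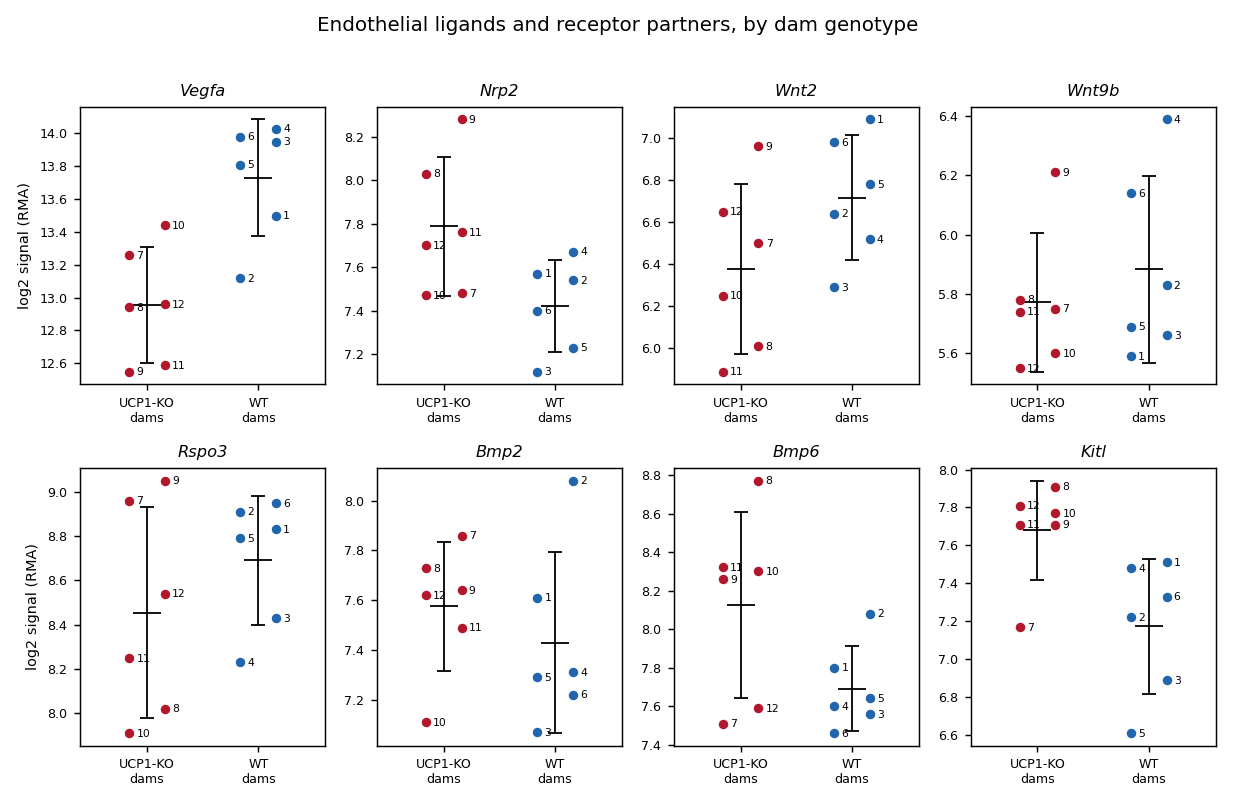
Log2 signal (y axis) of Vegfa, its co-receptor gene Nrp2 and 6 endothelial ligand genes in every offspring by dam genotype (x axis), with array numbers at the points and the mean ± SD of 6 mice. Vegfa overlapped between the groups because 2 mice of UCP1-KO dams, on arrays 7 (13.26) and 10 (13.44), exceeded the WT-dam mouse of array 2 (13.12).

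Other cell types that carry some of the 10 genes were read from their markers. Of 12 Kupffer cell markers 11 were measured, none had an unadjusted p under 0.05, and their mean log2 signal ran from 9.22 to 9.89 in offspring of UCP1-KO dams and from 9.15 to 10.63 in offspring of WT dams. Folr2 had -0.41 and Clec4f, which among liver cells is particular to Kupffer cells, -0.25. Without WT-dam arrays 3 to 6 these were -0.79 for Folr2 and -0.68 for Clec4f. Folr2 had -0.064 without arrays 8, 10 and 11, and Clec4f had -0.089 without WT-dam array 2. Of 4 lymphatic markers, all measured, the mean ran from 7.85 to 8.31 and from 7.61 to 8.39 in the same order of groups. Pdpn and Mmrn1 were below the negative controls, Prox1 is also a hepatocyte gene, and Ccl21a had 0.29 and Pdpn -0.11. Ccl21a had 0.057 without arrays 8, 10 and 11. The part of these cells in the values of Lyve1 or Stab1 was not tested.

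B cell markers (3 of 4 measured), T cell markers (4 of 4), natural killer cell markers (3 of 3) and neutrophil markers (2 of 3) all lay below the negative controls, and so did 3 of 4 platelet markers. None of these 16 genes had an unadjusted p under 0.05. The named members were Cd79a with 0.26, Cd79b with 0.21, Cd3d with -0.16, Cd8a with 0.19, Ncr1 with -0.12, Nkg7 with 0.19, S100a8 with 0.19, S100a9 with 0.17, Ppbp with -0.24 and Gp9 with 0.17. Of 12 stellate cell and fibroblast markers 11 were measured, with a mean of 8.40 to 8.67 in offspring of UCP1-KO dams and 8.17 to 8.71 in offspring of WT dams. Col3a1 had 0.41 and Lrat, the vitamin A esterifying enzyme of stellate cells, 0.48. Col3a1 had 0.13 without arrays 8, 10 and 11 and 0.20 without array 11 alone, and Lrat turned to -0.042 without WT-dam arrays 3 to 6. Bile duct markers (5 of 6 measured) had a median of -0.03, with 0.27 for Krt7, or 0.56 without arrays 8, 10 and 11, and -0.14 for Epcam. Hepatocyte markers (6 of 8) had a median of 0.04, with 0.14 for Cps1 and -0.20 for Cyp2e1, and Alas2, the 1 of 6 red cell markers measured, had 0.22.

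The genes most like the list from mouse to mouse were found by their correlation with the mean of the 10 genes, after removal of the group means, over 9876 named probe sets brighter than the negative controls and the 12 arrays. They were Rnf24 (r = 0.941), Ginm1 (0.931), Il22ra1 (0.914), Slc38a2 (0.912) and Rtf2 (0.911), where the 95th percentile of all those probe sets was 0.653. None is on the endothelial lists. Their log2 differences by dam were 0.09, 0.16, 0.01, 0.13 and -0.11. The mean they were matched to described some members better than others: its r over the other 9 genes was 0.874 for Clec4g, 0.621 for Dnase1l3 and 0.607 for Gpr182, but -0.455 for Stab2 and -0.524 for Lyve1.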

How the data were processed

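The authors deposited 1 table of log2 signals, with a column for each array. The submitters' processing notes name RMA and the Transcriptome Analysis Console. Versions and genome build are not given in the sources used here. RMA equalises the distributions of the arrays and compresses differences between dim probe sets.

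The 6640 control rows were left out and 22206 probe sets tested with limma 3.58.1 in R 4.3.3 (lmFit, eBayes, two-sided, dam genotype as the only term, 12 arrays), with Benjamini-Hochberg adjustment over all of them. Differences are the UCP1-KO-dam mean minus the WT-dam mean. The fit was tested on simulated data. Genes were named by the platform annotation, which gave 1 symbol to 19572 probe sets. Members, gene lists and motifs were chosen with earlier results of these data known. Besides the 10 members and 6 fixed ligands, the 2 genes of smallest p in each list and the 5 most alike are named. The number of arrays limits the precision. The closing part gives the effect of 20 alternatives, of which 12 leave out 1 array.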

Additional observations from a re-analysis of the deposited data

Results flagged for a closer look

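In 8 of 106 groups of 6 arrays, single mice lay far from the rest of their group by Dixon's criterion at the 95% level, where chance gives about 5.3. None of the 10 members and not their mean was among them. In offspring of UCP1-KO dams these were Wnt9b on array 9 at 6.21 (others 5.55 to 5.78), Robo4 on array 7 at 7.06 (others 7.47 to 7.63), Kitl on array 7 at 7.17 (others 7.71 to 7.91), Clec4f on array 10 at 9.57 (others 9.99 to 10.23) and Col3a1 on array 11 at 9.36 (others 7.99 to 8.37). In offspring of WT dams they were Folr2 on array 2 at 9.84 (others 8.82 to 9.20), Ppbp on array 5 at 4.80 (others 4.03 to 4.29) and Rnf24 on array 2 at 8.48 (others 6.73 to 7.29).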

How the results depend on the processing

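None of the 10 members passed under any of the 20 alternatives (limma), while 5 to 6 had an unadjusted p under 0.05 when single arrays were left out. That count was 3 without WT-dam arrays 3 to 6 and 0 without UCP1-KO-dam arrays 8, 10 and 11, where 7.03% and 8.48% of all probe sets had one. The first setting keeps only arrays 1 and 2 of the WT dams, and the second only arrays 7, 9 and 12 of the UCP1-KO dams. Stab2, Plvap, Dnase1l3, Gpr182, Lyve1 and Kdr kept their direction under all 20. The median of the members was -0.236 to -0.019 with single arrays left out, -0.28 with the negative control covariate and 0.12 without UCP1-KO-dam arrays 8, 10 and 11. Of all probe sets 8 passed, and 1 to 112 with single arrays left out (WT-dam arrays 2, 3 and 6 gave 112, 3 and 2, and UCP1-KO-dam arrays 7, 8, 9 and 11 gave 54, 1, 4 and 5), 32 with the dimmer ones left out, 22 with a variance trend and 2 with the covariate. The count was 0 without WT-dam arrays 3 to 6 (1561 at an unadjusted p under 0.05) and 0 without UCP1-KO-dam arrays 8, 10 and 11 (1884). Signs turned as follows, and the cause was not tested. With single arrays left out Stab1 ran from -0.015 to 0.095, Rnf24 from -0.167 to 0.326, Il22ra1 from -0.189 to 0.133 and Pdpn from -0.204 to 0.001. With each array centred on its median Il22ra1 had -0.021. The covariate gave -0.065 for Bmp2, 0.11 for Pdpn, -0.009 for Cd8a, -0.29 for Rnf24, -0.24 for Il22ra1 and -0.02 for Slc38a2. Without WT-dam arrays 3 to 6 the values were -0.045 for Pecam1, 0.063 for Wnt9b, -0.27 for Bmp2, -0.073 for Cd34, 0.018 for Pdpn, -0.042 for Lrat, -0.15 for Cd8a, -0.15 for S100a9, -0.40 for Rnf24 and -0.23 for Il22ra1. Without UCP1-KO-dam arrays 8, 10 and 11 they were 0.19 for Clec4g, 0.19 for Fcgr2b, 0.16 for Rspo3, -0.03 for Efnb2, -0.085 for Cd79b, 0.047 for Cyp2e1 and 0.15 for Rtf2. The labels number the mice 1 to 12 with no number shared between the dams. No paired analysis was possible because the groups share no replicate number.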

Other observations

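Lyve1 and Stab2 both encode hyaluronan receptors, and a shift shared by all probe sets of an array cancels in their log2 difference. A shift that varies with signal level does not cancel. Lyve1 minus Stab2 was -1.59 ± 1.17 in offspring of UCP1-KO dams and -3.27 ± 0.93 in offspring of WT dams (SD, n = 6 each). It ran from -2.84 on array 12 to 0.33 on array 8 in the first group and from -4.38 on array 4 to -1.87 on array 2 in the second. Because the levels of different probe sets are not on 1 scale, the sign of these values has no meaning and only their differences between mice can be read. The pair was picked with its values known, so the difference between the groups is not tested. The permutation p given earlier for their correlation only describes the pair.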
